A study of Mus musculus with 2 samples.

Results

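The 10 genes described here belong to the pathway through which the melanocortin 1 receptor (MC1R) signals by cyclic AMP in melanocytes. They were chosen by name, with earlier results of these data known. They are *Mc1r*, *Gnas*, *Prkaca*, *Prkar1a*, *Prkar2b*, *Creb1*, *Crem*, *Pde4b*, *Pde4d* and *Pde10a*. All 10 were found among the 32285 genes of both count matrices. Their levels were read in cells with at least 1 UMI of *Dct*, the melanocyte lineage gene, and with fewer than 3 UMIs of the epidermal keratins *Krt10* and *Krt14* together. A UMI (unique molecular identifier) marks 1 captured transcript molecule. With less than 5% of UMIs from mitochondrial genes and more than 10000 UMIs per cell in early anagen or more than 5000 in the bulb, 2785 of 11010 early-anagen barcodes and 3734 of 4327 bulb barcodes were kept. The keratin limit fell unevenly. Of the barcodes within the mitochondrial and UMI limits, 677 of 3464 in early anagen and 29 of 3774 in the bulb reached it.

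The study compared melanocyte stem cells (McSCs) at the onset of hair growth with the mature pigment cells of the hair bulb by droplet single-cell RNA sequencing. All mice were Dct-rtTA; tetO-H2B-GFP animals fed doxycycline for 4 days, so that cells in which the *Dct* promoter is active carry histone-bound GFP, and both groups were sorted for GFP by that 1 promoter. Early-anagen McSCs came from the back skin of mice depilated at 8 weeks of age and taken 4 days later, at anagen II. Bulb melanocytes came from hair bulbs dissected out of anagen VI follicles in the back skin of mice 5 weeks of age, for which no depilation is described. Each group was 1 library made from the cells of 4 mice combined, with version 3 of the droplet kit for early anagen and version 2 for the bulb. Stage therefore cannot be told apart from age, depilation, dissociation, kit or depth, and no test between the groups was possible.

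MC1R is a receptor for α-MSH and ACTH, peptides cut from the POMC precursor, and couples to the stimulatory G protein whose α subunit is made from *Gnas*. Adenylyl cyclases then make cyclic AMP, which binds the regulatory subunits of protein kinase A (PKA) and frees the catalytic subunits to phosphorylate CREB and its relatives, while phosphodiesterases break cyclic AMP down. In hair follicle melanocytes this pathway is known for setting the balance between dark eumelanin and yellow pheomelanin, in large part through the transcription factor MITF.

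The cells kept held 75718468 UMIs in early anagen (median 24528 per cell, range 10001 to 99743) and 55883067 in the bulb (median 14286.5, range 5003 to 46256), and 1 barcode sequence occurred in both libraries. All 8 melanocyte markers were detected in both groups, at a sum of 24638 CPM (UMIs of a gene for every 1000000 UMIs of its group) in early anagen and 67431 in the bulb. The melanocyte markers include *Dct*, which the cell selection required, and the epidermal markers include *Krt10* and *Krt14*, which it limited. The sums of both lists are thus partly set by the selection. In the same 2 groups the 8 epidermal markers summed to 30.9 and 34.7 CPM, with 2 at 0 in the bulb, and the 5 hair matrix and inner sheath markers to 19.5 and 126. Most of the latter was *Lef1*, at 17.9 and 77.0 CPM, with a UMI in 30.8% of McSCs and 63.3% of bulb melanocytes. The sum is therefore a poor measure of matrix cells. *Tchh* gave 40.8 CPM in the bulb, from 1.85% of cells. Fibroblast, immune and endothelial markers summed to between 0.0358 and 7.30 CPM, and 15 dissociation and stress genes to 3758 in early anagen and 2462 in the bulb. Cells with a UMI of the proliferation genes *Mki67* or *Top2a*, called cycling here, were 45.3% of early-anagen McSCs and 2.44% of bulb melanocytes. The call used all UMIs of each cell, so the different depth of the libraries enters these shares. The part of matrix cells, stress and cycling in the values below was not tested, except where cycling cells are set apart.

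The stretches before the transcription start sites of *Mc1r*, *Prkar1a* and *Mitf* are shown because they hold the recognition letters of the factors at the end of this pathway. TCATGTG is the M-box form of the E-box read by MITF. TGACGTCA, which reads the same on the other strand, is the full cyclic AMP response element read by CREB. Both strands were searched, and none of these windows held both motifs. Capitals mark the match in each window of the 250 bases before a start site, taken from RefSeq on build GRCm38.p6, with positions counted from -1 at the last base before the start.
Mc1r, chr8:123406832-123407081, + strand, TCATGTG at -52 to -46: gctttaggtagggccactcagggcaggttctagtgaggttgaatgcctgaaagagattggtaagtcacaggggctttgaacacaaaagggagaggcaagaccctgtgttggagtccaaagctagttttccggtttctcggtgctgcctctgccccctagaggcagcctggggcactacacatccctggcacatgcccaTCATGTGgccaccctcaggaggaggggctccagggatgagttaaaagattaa
Prkar1a, chr11:109650699-109650948, + strand, TGACGTCA at -49 to -42: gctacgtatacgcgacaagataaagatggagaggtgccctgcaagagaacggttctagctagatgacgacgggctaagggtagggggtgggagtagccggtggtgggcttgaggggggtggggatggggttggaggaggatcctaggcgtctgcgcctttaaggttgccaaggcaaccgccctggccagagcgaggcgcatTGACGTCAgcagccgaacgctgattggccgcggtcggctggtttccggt
Mitf, chr6:97991533-97991782, + strand, TGACGTCA at -153 to -146: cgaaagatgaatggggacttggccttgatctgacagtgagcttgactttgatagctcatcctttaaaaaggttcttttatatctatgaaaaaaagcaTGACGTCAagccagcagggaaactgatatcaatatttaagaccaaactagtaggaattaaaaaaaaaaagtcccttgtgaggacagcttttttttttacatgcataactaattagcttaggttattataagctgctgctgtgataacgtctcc

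RefSeq gave 23 such windows for 9 of the 10 genes. TCATGTG was found in 3 of them, 1 each of *Mc1r*, *Prkar1a* and *Pde4d*, and TGACGTCA in the 1 window of *Prkar1a* shown. Over all 32851 windows of this length, 3.25% held TCATGTG and 1.55% held TGACGTCA. Neither was found in the *Pde10a* windows. Outside the 10 genes, *Mitf* and *Nr4a3* were also searched. Of the 3 windows of *Mitf* only that shown held a match, and the 1 window of *Nr4a3* held neither motif. These are matches of letters only, and binding was not measured.

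To ask how the pathway differs between the start and the end of the lineage in anagen, UMIs were summed over the cells of each group and scaled to CPM. In bulb melanocytes, *Mc1r*, the catalytic subunit gene *Prkaca* and the phosphodiesterase gene *Pde10a* were more than 2-fold higher than in early-anagen McSCs, and *Creb1* and *Pde4b* more than 2-fold lower. These were 3 and 2 of the 9 genes with at least 10 CPM in either group, against a background of 16.3% of 8020 genes at least 2-fold higher and 28.7% at least 2-fold lower. The members were thus spread over both directions. These members were chosen with earlier results of these data known, so the shares only describe them. Their median log2 ratio was -0.15, against -0.42 for all 15502 genes seen in both groups and -0.18 for the 8006 of these at the 10 CPM minimum. *Prkar2b*, the tenth gene, was under that minimum in both groups. Of all genes past 2-fold, 36.2% were higher in the bulb with totals as scaling and 53.4% with edgeR's TMM factors, which raised the median of all genes by 0.31. The sign of the ratio was the same with each scaling for all 10 genes. Intervals are exact 95% Poisson intervals and cover counting error only, not the spread between mice. A 3′ UMI counts transcript ends whatever their length, and fewer transcripts of a gene cannot be told apart from more of others at a fixed total.

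**Figure D1:**
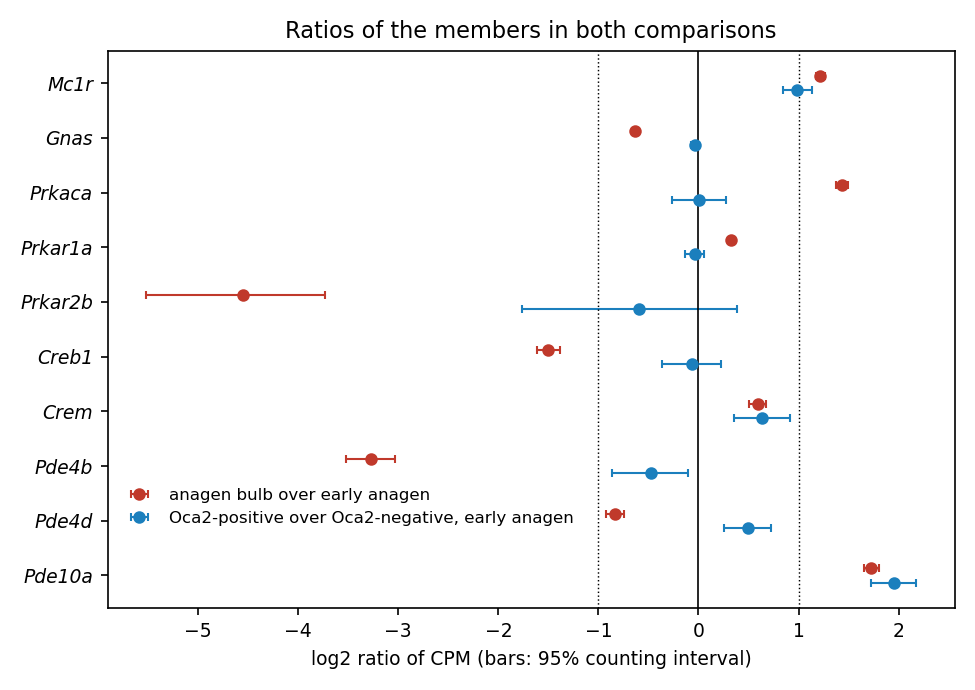
Log2 ratio of CPM for each of the 10 genes (horizontal axis), for anagen bulb over early anagen (red) and for *Oca2*-positive over *Oca2*-negative early-anagen McSCs (blue). Bars are 95% counting intervals and dotted lines mark a 2-fold difference. *Mc1r*, *Crem* and *Pde10a* lay above 0 in both comparisons, whereas *Prkaca* stood at 1.44 in the first and 0.01 in the second.

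*Mc1r* (ENSMUSG00000074037, GRCm38 chromosome 8, 123407107 to 123410744, + strand) encodes the receptor itself. It had 7336 UMIs in early anagen, or 96.9 CPM (94.7 to 99.1), and 12594 in the bulb, or 225 CPM (221 to 229). The level was thus higher in the bulb by 2.33-fold (2.26 to 2.39), a log2 ratio of 1.22. Against the median of all genes the log2 ratio was 1.64. The annotation places *Gm20388* over *Mc1r* on the same strand, and *Gm20388* held 0 UMIs in both groups.

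Among the other genes of the receptor and its ligands, the remaining receptors were close to absent. *Mc3r* had 0 UMIs in both groups, *Mc2r* and *Mc4r* had 1 and 3 in early anagen and 0 in the bulb, and *Mc5r* had 36 and 2. *Pomc*, the precursor of the ligands, stood at 3.74 CPM in early anagen and 1.90 in the bulb. *Agrp*, an antagonist of other melanocortin receptors, held 4 and 3 UMIs. Of the 11 genes of this role, 2 reached 10 CPM. *Atrn*, encoding attractin, a membrane protein needed for agouti to act on pigment, was at 44.6 CPM in early anagen and 19.8 in the bulb, a log2 ratio of -1.17 (-1.27 to -1.07). *Mgrn1*, a ubiquitin ligase that acts on MC1R signalling, was at 29.8 and 28.4, a log2 ratio of -0.07 (-0.16 to 0.03).

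*Gnas* (ENSMUSG00000027523, chromosome 2, 174284320 to 174346744, + strand) was detected in nearly all cells of both groups. It had 128514 UMIs in early anagen, or 1697 CPM (1688 to 1707), and 61092 in the bulb, or 1093 CPM (1085 to 1102). The log2 ratio was -0.63 (-0.65 to -0.62), with the lower level in the bulb. *Nespas*, antisense to *Gnas*, held 29 and 26 UMIs, and *Gm20721* on the other strand held 469 and 28. The inhibitory α subunit genes gave *Gnai2* at 558 and 280 CPM, *Gnai3* at 94.3 and 66.6, and *Gnai1* at 23.0 and 21.7. None of these 3 was past 2-fold, although *Gnai2* came close with a log2 ratio of -0.997. Adenylyl cyclase UMIs summed to 40.0 CPM in early anagen and 16.3 in the bulb. *Adcy7* had 971 UMIs in early anagen and 28 in the bulb, a log2 ratio of -4.68 (-5.28 to -4.14), so that its share of cyclase UMIs was 32.1% and 3.08%. *Adcy2* made up 31.5% of cyclase UMIs in early anagen and 53.1% in the bulb. Its level was nonetheless lower in the bulb, at 12.6 and 8.64 CPM, a log2 ratio of -0.54 (-0.70 to -0.38).

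The genes of PKA differed by subunit. *Prkaca* (ENSMUSG00000005469, chromosome 8, 83972993 to 83996443, + strand), encoding the α catalytic subunit, had 3457 UMIs or 45.7 CPM (44.1 to 47.2) in early anagen and 6909 or 124 CPM (121 to 127) in the bulb. This was 2.71-fold higher in the bulb (2.60 to 2.82). *Prkacb*, the β catalytic subunit gene, went the other way, from 53.1 to 25.6 CPM, a log2 ratio of -1.05 (-1.14 to -0.96). *Prkaca* therefore made up 46.2% (45.1 to 47.4) of catalytic subunit UMIs in early anagen and 82.8% (82.0 to 83.6) in the bulb. The sum of both genes was 98.7 CPM in early anagen and 149 in the bulb.

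*Prkar1a* (ENSMUSG00000020612, chromosome 11, 109649405 to 109669656, + strand), the type I regulatory subunit gene with the response element printed above, had 25779 UMIs or 340 CPM (336 to 345) in early anagen and 23859 or 427 CPM (422 to 432) in the bulb. Its log2 ratio was 0.33 (0.30 to 0.35). Both type II genes were lower in the bulb. *Prkar2a* stood at 34.3 and 12.4 CPM. *Prkar2b* (ENSMUSG00000002997, chromosome 12, 31958476 to 32061296, - strand) had 382 UMIs in early anagen, or 5.04 CPM (4.55 to 5.58), and 12 in the bulb, or 0.215 CPM (0.111 to 0.375). *Prkar1a* made up 89.6% of regulatory subunit UMIs in early anagen and 97.1% in the bulb. The 43 bulb barcodes with a *Dct* share under 5% of the melanocyte median are called *Dct*-poor here. They held *Prkar2b* at 12.6 CPM, above the bulb melanocytes, with a UMI in 4 of them. Of the 43, 20 were also among the selected bulb melanocytes. How many of the 12 UMIs of *Prkar2b* in the bulb melanocytes came from these 20 was not counted. Leaving such barcodes out was among the alternative settings. Over all settings the log2 ratio of *Prkar2b* ranged from -5.13 to -3.86, with -4.55 in the main one. The range also spans changes of scaling and of other limits, so it does not show the effect of leaving these barcodes out.

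The transcription factors at the end of the chain differed in direction. *Creb1* (ENSMUSG00000025958, chromosome 1, 64532645 to 64604548, + strand), which encodes CREB, had 2899 UMIs or 38.3 CPM (36.9 to 39.7) in early anagen and 757 or 13.5 CPM (12.6 to 14.5) in the bulb, a log2 ratio of -1.50 (-1.62 to -1.38). *Crem* (ENSMUSG00000063889, chromosome 18, 3266048 to 3337748, - strand), whose locus makes both activating and repressing forms, had 2206 UMIs or 29.1 CPM (27.9 to 30.4) and 2452 or 43.9 CPM (42.2 to 45.6), a log2 ratio of 0.59 (0.51 to 0.67). *Atf1*, the nearest relative of CREB, stood at 56.0 and 20.0 CPM. *Crem* thus made up 23.6% of the UMIs of these 3 genes in early anagen and 56.7% in the bulb. The forms of *Crem* cannot be told apart by UMIs summed per gene.

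The phosphodiesterase genes differed in both directions. *Pde10a* (ENSMUSG00000023868, chromosome 17, 8525372 to 8986648, + strand), whose enzyme breaks down cyclic AMP and cyclic GMP, had 2094 UMIs or 27.7 CPM (26.5 to 28.9) in early anagen and 5110 or 91.4 CPM (89.0 to 94.0) in the bulb, 3.31-fold higher (3.14 to 3.48). *Pde4b* (ENSMUSG00000028525, chromosome 4, 102087543 to 102607259, + strand), of the cyclic AMP-specific PDE4 family, had 1928 UMIs or 25.5 CPM (24.3 to 26.6) in early anagen and 147 or 2.63 CPM (2.22 to 3.09) in the bulb, 9.68-fold lower (8.18 to 11.5). *Pde4b* stood at 64.4 CPM in the early-anagen *Dct*-poor barcodes, above the McSCs, of which 2 were such barcodes. Over all alternative settings, of which 1 left such barcodes out, its log2 ratio ranged from -3.43 to -2.96. The range also spans changes of scaling, so it does not show the effect of that setting alone. *Pde4d* (ENSMUSG00000021699, chromosome 13, 108449948 to 109953461, + strand), of the same family, had 3574 UMIs or 47.2 CPM (45.7 to 48.8) and 1479 or 26.5 CPM (25.1 to 27.9), a log2 ratio of -0.83 (-0.92 to -0.75). The pair of PDE4 genes was therefore lower and *Pde10a* higher in the bulb.

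Over all 21 cyclic nucleotide phosphodiesterase genes the sum was 234 CPM in early anagen and 181 in the bulb, so the family differed more in its makeup than in its sum. The 21 include genes of enzymes that act on cyclic GMP, such as *Pde5a* at 8.72% and 8.33% of the UMIs. Sums and shares of the family are therefore not those of cyclic AMP breakdown alone. In early anagen 7 genes each held more than 7% of the UMIs, led by *Pde4d* at 20.2% and *Pde1c* at 14.7%, with *Pde10a* at 11.8% (11.4 to 12.3). In the bulb *Pde10a* alone held 50.5% (49.5 to 51.5), followed by *Pde4d* at 14.6% and *Pde7a* at 10.3%. Of the family's genes at the 10 CPM minimum, *Pde1c* and *Pde3a* were the others past 2-fold, with log2 ratios of -3.33 (-3.55 to -3.12) and -3.01 (-3.24 to -2.78). *Pde1c* held 1.89% of the family in the bulb. Under the minimum, *Pde1b* had 732 and 40 UMIs, a log2 ratio of -3.76 (-4.25 to -3.30), and *Pde4a*, *Pde7b* and *Pde11a* were also more than 2-fold lower. So were *Pde3b*, with 89 and 0 UMIs, and *Pde4c*, with 10 and 1. *Pde6a* went the other way, with 20 UMIs in early anagen and 44 in the bulb, a log2 ratio of 1.58 (0.78 to 2.42).

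**Figure D2:**
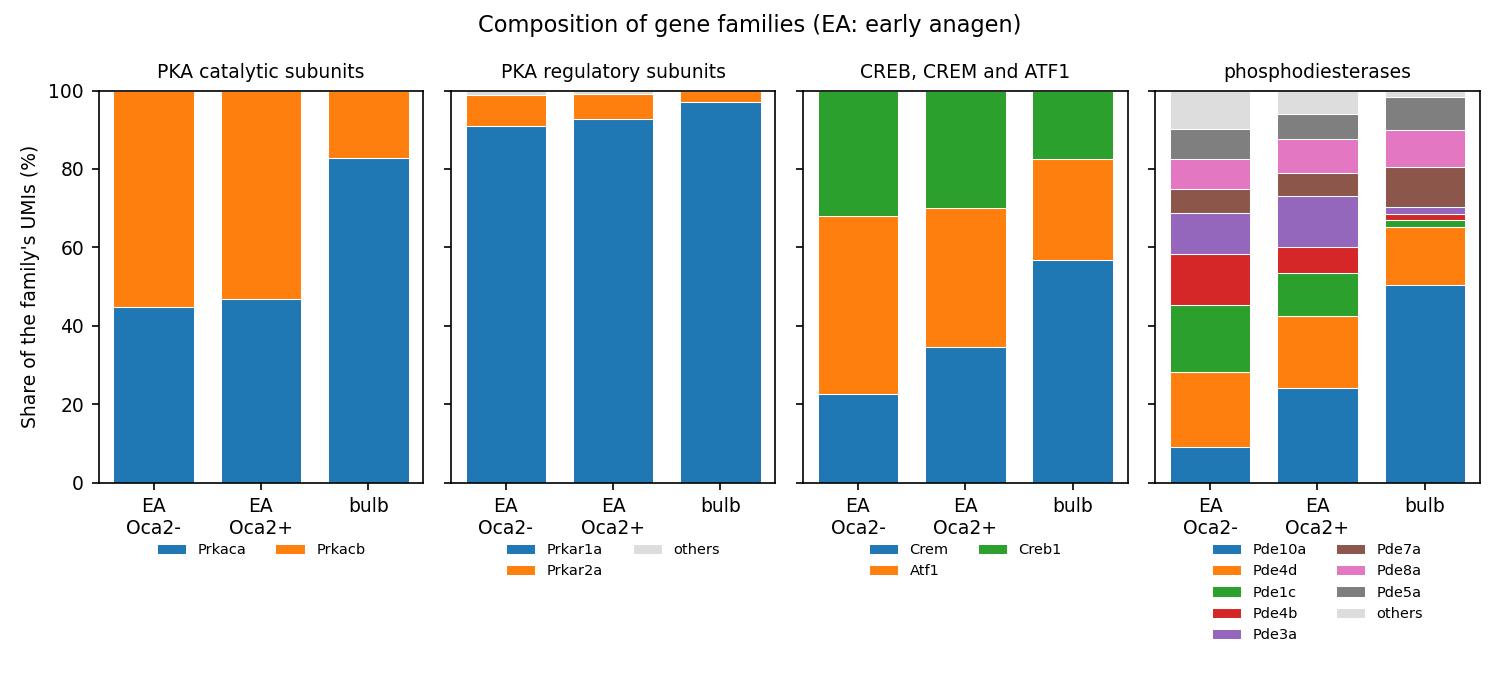
Share of UMIs (vertical axis, %) held by each gene of 4 families in *Oca2*-negative and *Oca2*-positive early-anagen McSCs (EA, thinned to 10000 UMIs per cell) and in bulb melanocytes (all UMIs). Genes under 5% in all 3 groups are drawn as others. *Prkaca*, *Crem* and *Pde10a* hold 82.8%, 56.7% and 50.5% of their families in the bulb, and in *Oca2*-positive McSCs 46.9%, 34.6% and 24.3%.

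The wider pathway list was also chosen with earlier results of these data known. It held 83 other genes found in the matrices, of which 38 passed the minimum in this comparison. Of these, 1 was at least 2-fold higher in the bulb and 16 (42.1%) at least 2-fold lower, beside 16.3% and 28.7% of all genes tested. The median of the 67 with UMIs in both groups was -0.98, beside -0.42 for all genes. The counts by role are small, and the share of 33.3% for the anchoring proteins lies near that of all genes. By role, 4 of 7 genes of the CREB family, its coactivators and the SIK kinases were past 2-fold lower. These were *Atf1*, the histone acetyltransferase genes *Crebbp* (log2 ratio -2.33) and *Ep300* (-2.09), and *Sik3* (-2.31), whose kinase holds CREB coactivators in the cytoplasm. Of 6 A-kinase anchoring protein genes 2 were past 2-fold lower, *Akap11* and *Akap13*. Among 8 genes driven through cyclic AMP response elements, *Rgs2*, *Nr4a1*, *Nr4a2* and *Ppargc1a* were past 2-fold lower and *Dusp1* past 2-fold higher. *Rgs2*, which restrains G protein signalling, had 1116 UMIs in early anagen and 5 in the bulb, a log2 ratio of -7.36 (-8.99 to -6.14). *Nr4a1*, at 54.9 and 15.7 CPM, and *Dusp1*, a phosphatase gene, are also on the stress list, whose sum was 3758 CPM in early anagen and 2462 in the bulb. *Dusp1* stood at 42.2 and 259 CPM, a log2 ratio of 2.62. *Mitf* stood at 446 and 330 CPM, a log2 ratio of -0.44 (-0.46 to -0.41). Genes of this role thus went in both directions.

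To ask whether the same genes vary within early anagen, each McSC was thinned at random to 10000 UMIs and split by *Oca2*, a late pigmentation gene. At this depth 292 McSCs had at least 1 *Oca2* UMI (139 had 1 and 153 had 2 or more) and 2493 had none, with median UMIs before thinning of 27409 and 24119. With all UMIs, 454 McSCs (16.3%) had at least 1. The *Oca2*-negative class therefore means no UMI after thinning and includes cells that hold *Oca2* at full depth. Both groups of cells come from 1 library, so the kit, age and depilation are shared and no p-value can be given. The early-anagen library also enters the comparison with the bulb, and values of both are therefore set side by side without a test of their likeness. In *Oca2*-positive McSCs *Pde10a* was past 2-fold higher, *Mc1r* lay at the 2-fold line, *Crem* and *Pde4d* were higher by less, and *Pde4b* was lower. Of the 9 genes at the minimum, 1 was called higher and 0 lower, against a background of 1.47% and 2.38% of 7733 genes. The median log2 ratio of the 10 genes was -0.01, against 0.05 over all 13564 genes seen in both classes of cells. The 8 epidermal markers summed to 35.6 CPM in *Oca2*-positive and 35.3 in *Oca2*-negative cells, and the stress genes to 3663 and 4070. *Krt10* and *Krt14*, which the cell selection limited in both classes, are among the epidermal markers.

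**Figure D3:**
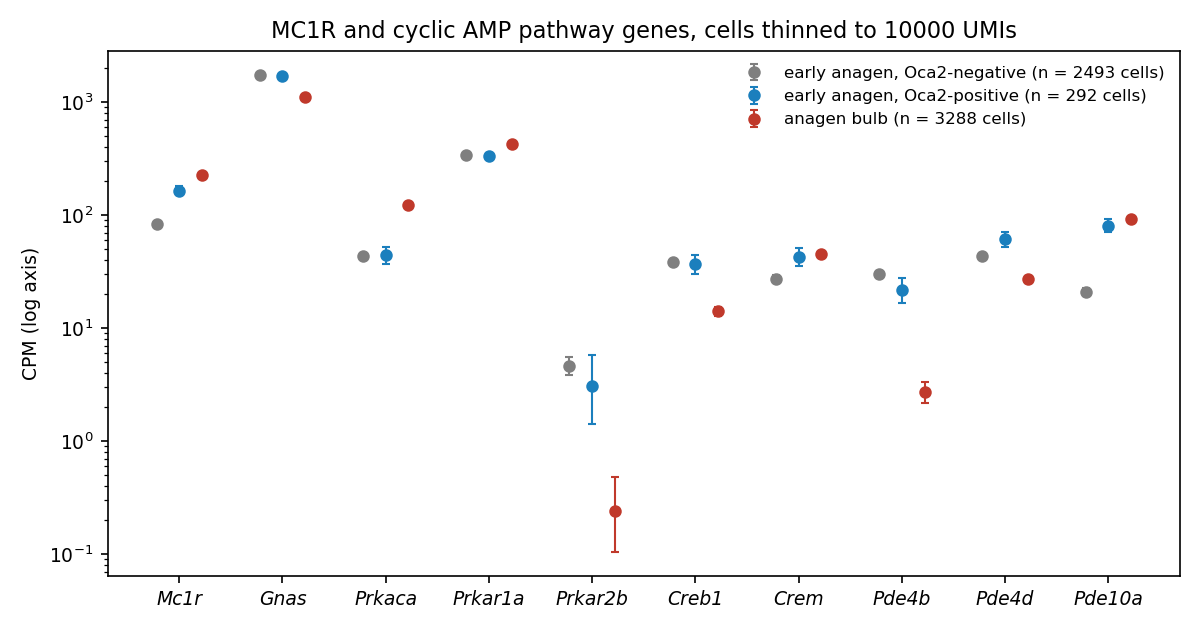
CPM (vertical log axis) of the 10 genes in *Oca2*-negative McSCs (grey), *Oca2*-positive McSCs (blue) and bulb melanocytes with at least 10000 UMIs (red), all thinned to 10000 UMIs per cell. Bars are exact 95% Poisson intervals. *Mc1r* and *Pde10a* of *Oca2*-positive McSCs (165 and 80.8 CPM) lie nearer to the bulb (226 and 92.0) than to *Oca2*-negative McSCs (83.3 and 20.9).

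*Pde10a* had 236 UMIs in the 292 *Oca2*-positive McSCs, or 80.8 CPM (70.8 to 91.8), and 521 in the *Oca2*-negative McSCs, or 20.9 CPM (19.1 to 22.8). The log2 ratio was 1.95 (1.72 to 2.18). The level was higher the more *Oca2* UMIs a cell had, at 54.0 CPM (42.4 to 67.6) in cells with 1 and 105 (89.6 to 123) in cells with 2 or more. Thinned bulb melanocytes stood at 92.0 CPM (88.8 to 95.4), within the interval of the McSCs with 2 or more *Oca2* UMIs. Bulb over *Oca2*-positive McSCs gave a log2 ratio of 0.19 (-0.00 to 0.38).

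*Mc1r* had 482 UMIs in *Oca2*-positive McSCs, or 165 CPM (151 to 180), and 2077 in *Oca2*-negative McSCs, or 83.3 CPM (79.8 to 87.0). The log2 ratio of 0.99 (0.84 to 1.13) lay just under the 2-fold line, and it was past that line under 8 of the alternatives, a second random draw of UMIs included. Of these 8, 2 gave identical counts and are not separate. Over 0, 1 and 2 or more *Oca2* UMIs the level was 83.3, 132 (114 to 153) and 195 (173 to 218) CPM, and in the bulb 226 (221 to 231). The bulb value for *Mc1r* was above that of each class of McSCs, which was not so for *Pde10a*. The counting intervals of these 4 groups did not overlap, but the last 2 were nearly adjacent, at 218 and 221. The variance of *Mc1r* UMIs over their mean was 1.71 in McSCs and 1.42 in the bulb, above the 1 of counting noise. The intervals leave out this variation among cells, so they do not settle whether the last 2 groups differ. Bulb over *Oca2*-positive McSCs was 0.45 (0.32 to 0.59).

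*Crem* and *Pde4d* were also higher in *Oca2*-positive McSCs. *Crem* stood at 42.8 CPM against 27.5, a log2 ratio of 0.64 (0.35 to 0.91), and the bulb at 45.0 lay close to the *Oca2*-positive level (log2 ratio 0.07, -0.19 to 0.35). *Pde4d* stood at 61.3 against 43.6 CPM, a log2 ratio of 0.49 (0.26 to 0.72). *Pde4d* thus differed in opposite directions in the 2 comparisons, since the bulb was at 27.0 CPM, below both classes of McSCs (log2 ratio of bulb over *Oca2*-positive McSCs -1.18, -1.42 to -0.94). *Pde4b* stood at 21.6 against 30.0 CPM in *Oca2*-positive and *Oca2*-negative McSCs, a log2 ratio of -0.47 (-0.87 to -0.10), and at 2.71 in the bulb.

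The other 5 genes gave intervals that held 0. *Prkaca* was at 44.2 CPM in *Oca2*-positive and 43.9 in *Oca2*-negative McSCs, a log2 ratio of 0.01 (-0.27 to 0.27), and bulb over *Oca2*-positive McSCs was 1.49 (1.23 to 1.75). *Gnas* (-0.03, -0.08 to 0.01) and *Prkar1a* (-0.04, -0.14 to 0.06) had the narrowest intervals, and *Creb1* gave -0.07 (-0.37 to 0.22). *Prkar2b*, with 9 and 116 UMIs, gave -0.59 (-1.76 to 0.38), an interval too wide to show a 2-fold difference. The bulb differences of *Prkaca*, *Creb1* and *Gnas*, at -1.39 for *Creb1* and -0.62 for *Gnas* against *Oca2*-positive McSCs, were therefore of similar size whichever McSCs they were set against.

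**Figure D4:**
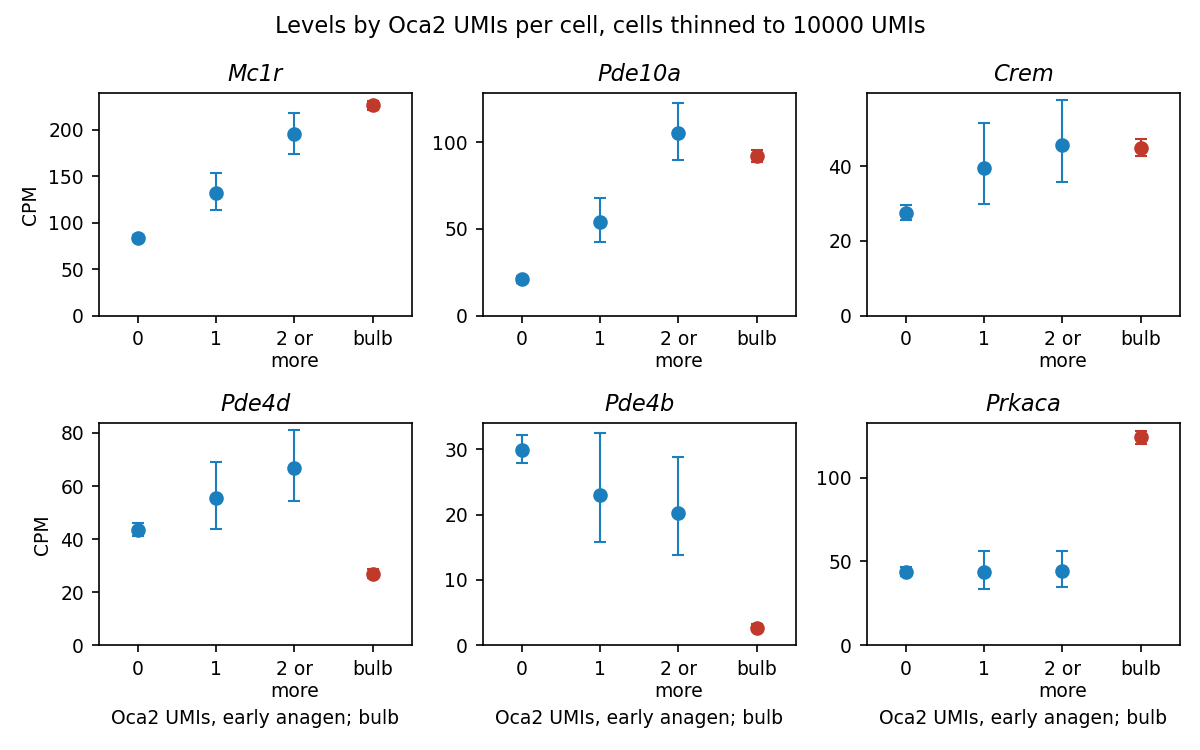
CPM (vertical axes) of 6 genes in early-anagen McSCs with 0 (n = 2493), 1 (n = 139) or at least 2 (n = 153) *Oca2* UMIs (blue) and in bulb melanocytes (red, n = 3288), all thinned to 10000 UMIs per cell, with exact 95% Poisson intervals. *Mc1r* goes from 83.3 to 195 CPM within early anagen and *Pde10a* from 20.9 to 105, whereas *Prkaca* lies between 43.9 and 44.4 and stands at 124 in the bulb.

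Cycling cells were 97 of the 292 *Oca2*-positive McSCs and 1165 of the *Oca2*-negative ones, and the split was repeated within each class. Depth enters the cycling call, which used all UMIs. Among *Oca2*-negative McSCs, median UMIs before thinning were 33483 in cycling and 18931 in other cells. The *Mc1r* ratio was 1.16 (0.98 to 1.34) among cells that were not cycling and 0.68 (0.41 to 0.94) among cycling cells. For *Pde10a* the values were 1.78 (1.51 to 2.05) and 2.11 (1.68 to 2.52), so it was past 2-fold in both classes. *Crem* gave 0.71 (0.38 to 1.04) and 0.28 (-0.33 to 0.83), and *Pde4b* gave -0.77 (-1.31 to -0.28) and -0.02 (-0.64 to 0.55). Among *Oca2*-negative McSCs, cycling over other cells gave 0.15 (0.03 to 0.28) for *Mc1r* and -0.68 (-0.95 to -0.42) for *Pde10a*. The difference between the classes was not tested.

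In the bulb, 148 of the 3288 thinned melanocytes had no *Oca2* UMI. *Mc1r* was at 223 CPM in these (200 to 248) and 226 in the others, a log2 ratio of 0.02 (-0.14 to 0.18). *Pde10a* was at 68.2 (55.6 to 82.9) and 93.2 CPM, a log2 ratio of 0.45 (0.16 to 0.75). *Prkar2b* had 4 UMIs in the cells without *Oca2*, or 2.70 CPM (0.736 to 6.92), and 4 in the others, or 0.127 CPM (0.0347 to 0.326). Its log2 ratio was -4.41 (-6.83 to -1.98), on few UMIs. Epidermal markers summed to 359 CPM in the bulb cells without *Oca2*, against 35.2 over all thinned bulb cells. Their part in these differences was not tested.

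Of the other pathway genes, 40 passed the minimum in the *Oca2* split, with 4 (10.0%) at least 2-fold higher and 2 (5.0%) at least 2-fold lower in *Oca2*-positive McSCs, beside 1.47% and 2.38% of all genes tested. The median log2 ratio was -0.03 over 61 genes, beside 0.05 for all genes. The genes past 2-fold higher were *Nr4a3*, an orphan nuclear receptor gene, with 135 UMIs against 391 and a log2 ratio of 1.56 (1.27 to 1.84), *Akap10* (1.14), *Sik1* (1.07) and *Gnai1* (1.03, 0.74 to 1.32). *Adcy2* (-1.04) and *Rgs2* (-1.22, 22 UMIs against 439) were past 2-fold lower. Past neither line, *Ppargc1a* gave 0.85, *Mitf* 0.71 (0.64 to 0.78), *Dusp1* 0.67, and the phosphodiesterase genes *Pde3a* 0.87, *Pde8a* 0.72 and *Pde7a* 0.52. Phosphodiesterase UMIs summed to 333 CPM in *Oca2*-positive and 228 in *Oca2*-negative McSCs, of which *Pde10a* held 24.3% (21.6 to 27.1) and 9.18% (8.44 to 9.97). *Mitf*, whose window above holds the full response element, stood at 413, 571 and 772 CPM over 0, 1 and 2 or more *Oca2* UMIs and at 332 in the bulb.

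Shares of cells with a UMI were compared with every cell thinned to 5000 UMIs. *Mc1r* was detected in 31.6% of early-anagen McSCs (29.8 to 33.3) and 63.2% of bulb melanocytes (61.6 to 64.7). Without thinning the shares were 71.3% and 89.6%. As a background, *Dct*-poor barcodes were used, which numbered 63 in early anagen (median 30612 UMIs, *Krt14* in 85.7%) and 43 in the bulb (median 11232 UMIs, *Msx2*, a hair matrix gene, in 88.4%). Of these, 2 and 20 were also among the selected cells, so the groups were not fully apart. At all UMIs, *Mc1r* was seen in 1 of the 63, or 1.59%, and in 3 of the 43, or 6.98%. Detection of *Mc1r* in both groups of melanocytes was well above these shares.

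*Pde10a* was detected at 5000 UMIs in 11.2% of McSCs and 33.3% of bulb melanocytes, and at all UMIs in 33.0% and 59.3%. None of the 63 or 43 *Dct*-poor barcodes held a *Pde10a* UMI, which at 3 counts allows shares of cells with a UMI of up to 4.76% and 6.98% (Clopper-Pearson upper limits 5.69% and 8.22%). *Prkaca* was in 19.7% and 46.1% of the cells at 5000 UMIs, against 15.9% and 32.6% of *Dct*-poor barcodes, and *Crem* in 12.8% and 18.3% against 4.76% and 2.33%. *Pde4d* was in 19.5% and 13.1% against 3.17% and 2.33%. Intervals of melanocytes and *Dct*-poor barcodes were apart for *Pde10a* in both libraries, *Crem* in the bulb and *Pde4d* in early anagen, and overlapped for the rest of these 4 genes.

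*Pde4b* did not follow this order in early anagen. It was in 12.2% of McSCs but in 27.0% (16.6 to 39.7) of early-anagen *Dct*-poor barcodes, where its level was 64.4 CPM at all UMIs. The early-anagen *Dct*-poor barcodes, mostly with *Krt14*, thus held *Pde4b* at a higher level than the McSCs. In the bulb it was in 1.53% of melanocytes against 2.33% (0.0589 to 12.3), or 1 *Dct*-poor barcode. At all UMIs the bulb shares were 3.72% and 2.33%, so the bulb showed no clear order. In the bulb, *Dct*-poor barcodes held *Prkar2b* and *Creb1* above the melanocytes, at 12.6 against 0.215 CPM and 16.8 against 13.5. These levels rest on UMIs in only 4 and 6 of the 43 barcodes. Of the selected cells, 2 McSCs and 20 bulb melanocytes were *Dct*-poor, and leaving these out was among the alternative settings. Over all settings the log2 ratio of bulb over early anagen ranged from -3.43 to -2.96 for *Pde4b*. It ranged from -5.13 to -3.86 for *Prkar2b* and from -1.66 to -1.19 for *Creb1*. These ranges also span changes of scaling, so they do not show the effect of leaving the *Dct*-poor cells out. Any further part of such cells in the levels of these 3 genes was not tested. *Creb1* was in 17.4% of McSCs against 14.3%, and in 6.75% of bulb melanocytes against 6.98%, and *Prkar2b* in 2.19% of McSCs against 1.59%. *Prkar1a*, in 81.3% and 87.5% of the cells, was in 49.2% and 65.1% of *Dct*-poor barcodes. *Gnas*, in 99.9% and 99.4% of the cells, was at 376 and 344 CPM in *Dct*-poor barcodes, under its level in the melanocytes of the same library.

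**Figure D5:**
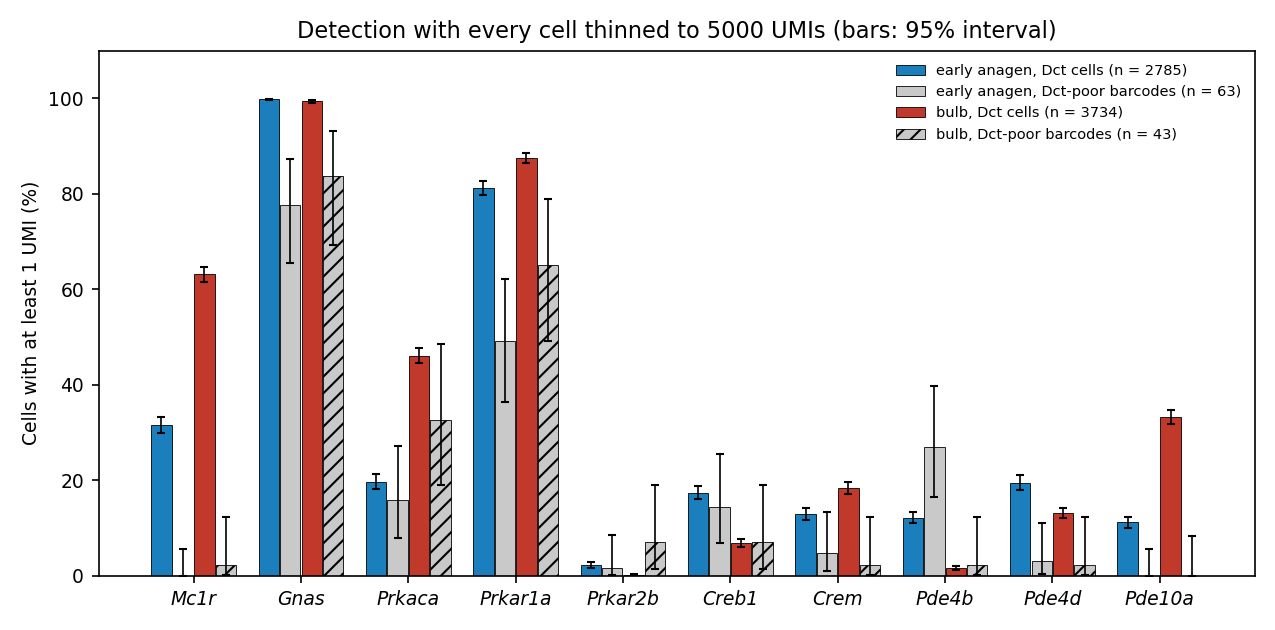
Percentage of cells with at least 1 UMI (vertical axis) for the 10 genes, with every cell thinned to 5000 UMIs and Clopper-Pearson 95% intervals. Coloured bars are the melanocytes of each library and grey bars its *Dct*-poor barcodes. *Mc1r* and *Pde10a* stand at 31.6% and 11.2% in McSCs and at 63.2% and 33.3% in bulb melanocytes, and *Pde4b* is highest in early-anagen *Dct*-poor barcodes.

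Variation among cells was described by the variance of UMIs over their mean at 10000 UMIs per cell, which is 1 for counting noise alone. In McSCs it was 2.07 for *Gnas*, 1.72 for *Pde10a* and 1.71 for *Mc1r*, and between 0.987 and 1.21 for the other 7 genes. *Mc1r* had a median of 1 UMI per McSC with a 90th percentile of 3 and a highest value of 11, and *Pde10a* a median of 0, a 90th percentile of 1 and a highest value of 7. In bulb melanocytes the ratio was 1.42 for *Mc1r*, 1.37 for *Gnas* and again 1.72 for *Pde10a*, with *Pde10a* reaching 13 UMIs at a median of 0. *Prkar2b* gave 1.75 there, but on 8 UMIs in all, with up to 3 in 1 cell. *Prkaca* was at 1.03 in McSCs and 1.04 in the bulb. The ratio depends on the mean, which for *Pde10a* was 0.272 UMIs in McSCs and 0.920 in the bulb, so equal ratios do not show equal variation.

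Among 3467 genes with at least 50 CPM in one of the groups, those whose pair of log2 ratios lay nearest to that of *Mc1r* were *Emc8* (1.15 and 1.05), *Bet1* (1.24 and 0.90), *Insig2* (1.18 and 0.87), *Ctsl* (1.15 and 0.88) and *Igsf8* (1.12 and 0.90), at distances from 0.0863 to 0.129. Fewer genes lay close to *Pde10a*, whose 5 nearest were *Apold1* (1.93 and 1.80), *Gng11* (1.75 and 1.67), *S1pr3* (2.10 and 1.98), *Gja1* (1.85 and 1.50) and *Hlf* (1.87 and 1.44), at distances from 0.253 to 0.534. In each pair the first value is the bulb over early anagen and the second is *Oca2*-positive over *Oca2*-negative McSCs. *Gng11*, which encodes a G protein γ subunit, was at 168 CPM in early anagen and 564 in the bulb. Likeness over these 2 ratios is a description of 3 groups of cells from 2 libraries.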

How the data were processed

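Droplet scRNA-seq libraries of early-anagen McSCs and of bulb melanocytes, 1 of each, were used. For each library the authors deposited a matrix of UMI counts that was not normalized, which they had made with Cell Ranger 6.0.1 on mm10/GRCm38. The telogen library was not analysed here. Cells were selected by the limits given above, following the quality limits of the paper's methods. Counts were summed over cells and scaled to CPM (Python 3.11.15, numpy 2.4.6, scipy 1.17.1, pandas 2.3.3). With 1 library per condition, cells were not treated as replicates, no p-value was computed, and a difference was called past 2-fold. Ratios of 2 sums carry an exact 95% interval that treats both as Poisson, and shares a Clopper-Pearson interval. The ratios and their intervals were tried on simulated Poisson counts, the same model that the intervals assume. Variation among cells beyond counting noise, as seen for *Gnas*, *Pde10a* and *Mc1r*, was not simulated. Doublets were not called; the 5% of cells with the most UMIs were left out as an alternative.

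The genes, the pathway list and the marker lists were chosen with earlier results of these data known. Named genes are the 10 members, the 12 pathway genes of at least 10 CPM with the largest ratio in each comparison, and the 5 genes nearest to *Mc1r* and to *Pde10a*, leaving out genes of the mitochondrial genome, of ribosomal proteins and those named only by a clone or model; others are given by role. *Asip* and *Akap2* of the pathway list were not matched by symbol. Keratinocyte-rich barcodes, planned as background, numbered 81 in early anagen and 2 in the bulb, so *Dct*-poor barcodes were used instead, a choice made after the counts were seen. Of the selected cells, 2 and 20 were *Dct*-poor. Thinning to 10000 UMIs left out 446 bulb melanocytes. TMM factors came from edgeR 4.0.16 in R 4.3.3 on the summed counts. Gene positions are from GENCODE on GRCm38. Intervals of counts rest on the depth given above and cover counting error only.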

Additional observations from a re-analysis of the deposited data

How the results depend on the processing

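No paired analysis was possible because each condition had 1 library, and for the same reason no replicate could be left out. In the bulb comparison 3 members were past 2-fold higher under all 13 alternatives and 2 were lower under all but 1, since with no minimum *Prkar2b* made 3. No member's ratio changed sign. *Mc1r* ranged from 1.06 to 1.53, *Prkaca* from 1.28 to 1.75 and *Pde10a* from 1.29 to 2.04 on the log2 scale. The median of the members turned from -0.15 to 0.16 with TMM factors and was -0.31 with a total without mitochondrial, ribosomal protein and pigmentation genes. These scalings shift every gene, by 0.31 and -0.16, and left the members 0.27 above the median of all genes. That offset depends on the genes compared. In the main setting the 8006 genes at the 10 CPM minimum had a median of -0.18, close to the -0.15 of the members. The median was -0.18 with cells thinned to 5000 UMIs and -0.18 without cycling cells. Pathway genes past 2-fold higher numbered 4 with TMM and 3 with no minimum in place of 1, and lower 34 with no minimum in place of 16. Over all genes, no minimum gave 2518 higher and 6222 lower in place of 1305 and 2304.

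In the *Oca2* split, 2 members in place of 1 were past 2-fold higher with cells thinned to 5000 UMIs, with at least 2 *Oca2* UMIs, with a 10% mitochondrial limit, with at least 10 *Dct* UMIs, without any *Krt10* or *Krt14* UMI, without cycling cells, with a second random seed, and without *Dct*-poor barcodes, an alternative added after seeing the data. *Mc1r* was the gene added, with a range of 0.91 to 1.23, and *Pde10a* ranged from 1.76 to 2.33. The signs of *Gnas*, *Prkaca*, *Prkar1a* and *Creb1*, whose intervals held 0, varied with the setting. Pathway genes past 2-fold higher numbered 2 without thinning, 2 without *Krt10* or *Krt14* UMIs and 7 with no minimum, in place of 4. The 7 include *Pde4c* and *Pde6a*, with 0 UMIs in *Oca2*-positive McSCs and 6 and 4 in *Oca2*-negative ones. They were called higher only because a 0 was set to 3 counts, which weighs more in the smaller group. Those lower numbered 1 without thinning, at 5000 UMIs, with 2 *Oca2* UMIs, with the 10% limit and with the second seed, 0 with 10 *Dct* UMIs and without *Dct*-poor barcodes, and 4 with no minimum, in place of 2. Each thinning draws UMIs anew, and the number of *Oca2*-positive cells was 292 in the main draw and 300 with the second seed. It was 304 both with at least 10 *Dct* UMIs and without *Dct*-poor barcodes, although these only leave cells out. All counts of these 2 alternatives were the same, so they are not separate. Over all genes the counts of 114 higher and 184 lower became 95 and 59 without thinning, 207 and 353 with at least 2 *Oca2* UMIs, and 2145 and 701 with no minimum. The 2145 also hold genes called higher through a 0 set to 3 counts, so they do not count genes truly higher. The share of cells with an *Mc1r* UMI was 71.3% at all UMIs and 50.2% at 10000 in early anagen, in place of 31.6%, and 89.6% and 84.9% in the bulb, in place of 63.2%. With TMM the *Oca2* comparison kept 30.0% higher among the genes past 2-fold against 38.3%. Depth and kit move with the condition and cannot be told apart from it, and the 12 UMIs of *Prkar2b* and 147 of *Pde4b* in the bulb limit their ratios.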
